A study of Mus musculus with 21 samples.

Results

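The subject is the way the effect of a Stag2 knockout differs between 2 progenitor populations of mouse bone marrow, erythroid colony-forming units (CFU-E) and granulocyte-monocyte progenitors (GMP). All CFU-E and GMP libraries of the study entered, 14 of its 21 libraries: GMP WT (n = 3), GMP KO (n = 4), CFU-E WT (n = 3) and CFU-E KO (n = 4). The KO effect is the log2 fold change of KO over WT in one population, and the tested quantity is the KO effect in CFU-E minus the KO effect in GMP. A positive value means that KO over WT was higher in CFU-E, and a negative value that it was higher in GMP.

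The labels give the genotype as Stag2 KO or WT and name no Cre driver, age or treatment. Cells were sorted from lineage-depleted marrow, and in both populations amplified RNA was read at its 3′ end. The labels number the libraries of a group but do not tie them to separate animals, and p-values here refer to library-to-library spread, part of which may be technical. These are bulk samples, in which fewer cells of a type and less RNA per cell cannot be told apart.

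Cohesin is a protein ring that extrudes and holds chromatin loops, and each ring carries either Stag1 or Stag2 as a subunit. Loops bring enhancers to promoters, and the enhancers in use differ between cell types. CFU-E are committed red cell precursors driven by the transcription factors Gata1 and Klf1, whereas GMP give rise to neutrophils and monocytes under C/EBP factors and PU.1.

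Total counts were 1250683 to 3471881 in GMP KO, 3732769 to 4401993 in GMP WT and 3654667 to 5550165 in CFU-E, so depth went with genotype in GMP. Levels below are CPM, counts as a share of the library's TMM-scaled total. Klf1, the erythroid factor, was at 516.5 to 683 CPM in CFU-E and 2.38 to 10.6 in GMP. Mpo, the myeloperoxidase of neutrophil granules, was at 9606 to 30467 CPM in GMP and 14.9 to 67.9 in CFU-E. Each of these 2 markers therefore sat in its labelled population. GMP libraries also held RNA of late neutrophil genes. S100a8 was at 32034 to 69985 CPM over GMP KO and 98027 to 127094 over GMP WT libraries. Ltf was at 630 to 939 and 1458 to 1904 CPM in the same groups. Cd3e, of T cells, was at no more than 0.494 CPM in any library. Among all 14, GMP KO 4 correlated least with the rest of its group (mean 0.936).

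The targeted gene was read first. Stag2 was at 122, 113 and 146 CPM in the WT and 65.5, 37.5, 61.02 and 68.4 CPM in the KO libraries of CFU-E, which did not overlap. In GMP it was at 226, 165 and 113 CPM in the WT and 101, 109.7, 88.6 and 154 CPM in the KO libraries, and GMP KO 4 lay above GMP WT 3. Stag2 fell in CFU-E (log2 -1.14 ± 0.263, SE, adjusted p = 0.0447), and in GMP its log2 fold change was -0.56 ± 0.248 (adjusted p = 0.187). A tag at the 3′ end need not fall where the deleted part lies elsewhere in the gene, so the GMP values do not show whether the gene was lost there. The difference between populations was -0.57 (95% interval -1.33 to 0.18, adjusted p = 0.483). Stag1, the alternative subunit, differed by -0.23 (95% interval -0.91 to 0.44, adjusted p = 0.761).

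Across the 11006 genes tested, the KO effect differed between CFU-E and GMP in 49 genes at adjusted p under 0.05, 0.445% of those tested, against 1501 at an unadjusted p under 0.05. It was higher in CFU-E for 37 genes (0.336%) and lower for 12 (0.109%). The genes with the smallest p were Actn1, an actin crosslinker that rose in CFU-E and fell in GMP, and Rnf128, a ubiquitin ligase that fell in CFU-E. In both populations the KO effect itself was past the threshold for 3 of the 49, in CFU-E alone for 19, in GMP alone for 25 and in neither for 2. Within each population, 77 genes passed in CFU-E (0.7%, 25 higher and 52 lower in KO) and 350 in GMP (3.18%, 92 higher and 258 lower).

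Of the 49 genes, 43 had KO effects of opposite sign in the 2 populations and 6 of the same sign. Calling genes on the difference favours opposite signs, so this count describes the genes and tests nothing. It includes effects near 0, such as the GMP effects of Enpp1 (0.02), Gda (0.02) and Lgals1 (0.06). For Gpc1 and Esyt1 the CFU-E effect was positive although the KO mean lay below the WT mean (1.16 against 1.41 and 37.9 against 38.3 CPM). A gene was counted as moving in opposite directions when it had at least 5 CPM on average in KO or WT of each population and KO effects of opposite sign, each at least 0.5 on the log2 scale. By this count 21 of the 49 did so, 16 up in CFU-E and down in GMP and 5 the reverse. In 13 of the 21, the KO and WT libraries did not overlap in either population, against 1.83% of all genes tested. Because all 49 were called from the same libraries, that share describes the genes and is not a separate test. A stricter count, which also needs both KO effects past the threshold, left Actn1 and Chst11. Of the 49, 41 reached 5 CPM in both populations, 7 in GMP only and 1 in CFU-E only. Of 51 genes called in CFU-E and measured at this level in GMP, 21 differed between populations, and of 244 called in GMP and measured in CFU-E, 22 did.

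**Figure D1:**
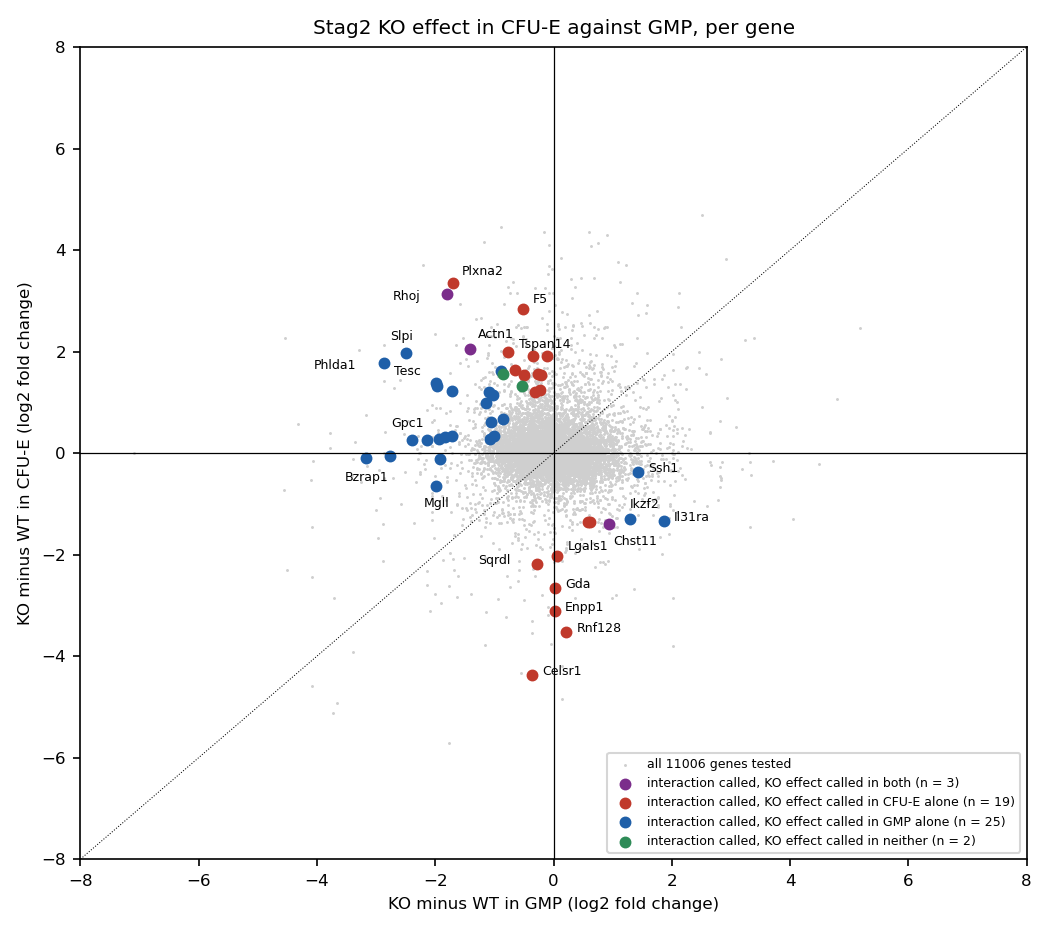
Each point is 1 of 11006 genes, with the KO effect in GMP on the horizontal axis and in CFU-E on the vertical axis (both log2 fold change of KO over WT). Coloured points are the 49 genes whose effect differed between populations, and 43 of them lie in the upper left or lower right quadrant. Calling genes on the difference favours these quadrants.

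The promoters of 4 genes that moved in opposite directions are shown. Actn1 and Chst11 passed the stricter count. Atp2b4 was picked because its promoter holds AGATAA. Ngp, a granule gene of neutrophils, was picked because its promoter holds TTGCNNAA 2 times. The matches in Atp2b4 and Ngp were thus selected and are not a finding. Of 19 matched promoters of genes moving in opposite directions, 1 held AGATAA (5.26%) and 4 held TTGCNNAA (21.1%). RefSeq promoters (GRCm38.p6) run from 250 bases before to 50 after the first listed start, and 38 of the 49 gene symbols matched one. Motifs were searched on both strands. Capitals mark matches to AGATAA, which GATA factors bind, and to TTGCNNAA, which C/EBP factors bind, and none of the marked matches overlap. The ETS factor letters AGGAAGT were searched as well. So were the letters TGTGGTT, bound by RUNX factors. Actn1 is at chr12:80260314-80260613 (minus strand), up in CFU-E and down in GMP. Chst11 is at chr10:82985247-82985546 (plus strand), down in CFU-E and up in GMP, and holds no match. Atp2b4 is at chr1:133753698-133753997 (minus strand), and Ngp is at chr9:110419558-110419857 (plus strand).
Actn1: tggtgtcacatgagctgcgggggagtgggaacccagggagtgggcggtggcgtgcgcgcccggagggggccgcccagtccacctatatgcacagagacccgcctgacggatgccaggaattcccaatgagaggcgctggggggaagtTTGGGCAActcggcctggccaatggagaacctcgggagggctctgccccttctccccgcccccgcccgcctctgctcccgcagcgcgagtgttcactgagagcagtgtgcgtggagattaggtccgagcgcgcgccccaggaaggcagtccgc
Chst11: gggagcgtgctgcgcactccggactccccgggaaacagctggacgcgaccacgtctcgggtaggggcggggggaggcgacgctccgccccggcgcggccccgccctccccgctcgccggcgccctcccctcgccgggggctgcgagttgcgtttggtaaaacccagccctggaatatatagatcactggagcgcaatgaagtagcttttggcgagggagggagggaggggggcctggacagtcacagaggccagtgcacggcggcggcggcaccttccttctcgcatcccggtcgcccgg
Atp2b4: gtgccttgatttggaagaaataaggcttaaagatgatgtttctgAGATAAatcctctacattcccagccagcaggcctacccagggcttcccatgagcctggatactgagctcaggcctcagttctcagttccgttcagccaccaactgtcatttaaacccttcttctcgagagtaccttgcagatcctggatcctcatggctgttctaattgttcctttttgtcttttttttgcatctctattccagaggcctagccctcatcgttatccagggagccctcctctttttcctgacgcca
Ngp: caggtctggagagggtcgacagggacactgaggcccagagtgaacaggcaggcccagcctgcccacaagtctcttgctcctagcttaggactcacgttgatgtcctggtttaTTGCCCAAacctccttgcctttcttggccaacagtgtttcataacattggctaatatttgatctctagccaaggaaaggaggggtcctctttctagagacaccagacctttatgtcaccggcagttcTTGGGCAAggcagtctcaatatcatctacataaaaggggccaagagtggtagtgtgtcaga
TTGCNNAA stood in 18.4% of the 38 matched promoters and in 10.8% of 27025 promoters of the same length. The shares were 5.26% against 11.4% for the GATA letters, 7.89% against 9.57% for the ETS letters and 5.26% against 5.37% for the RUNX letters. A match is a string of letters and not a bound site, and no match says only that these letters are not in this window.

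Among the 49 genes, the 3 whose KO effect passed in both populations moved in opposite directions. Actn1, alpha-actinin 1, crosslinks actin filaments at adhesions. In GMP it was at 268, 319 and 281 CPM in the WT and 112, 100.3, 114 and 106 CPM in the KO libraries. In CFU-E it was at 3.15, 4.76 and 2.47 CPM in the WT and 15.4, 15.97, 11.7 and 7.68 CPM in the KO libraries. No KO library overlapped a WT library in either population, with KO below WT in GMP and above it in CFU-E. The log2 fold change was 2.06 ± 0.292 in CFU-E (adjusted p = 0.0004) and -1.42 ± 0.196 in GMP (adjusted p = 0.000333), a difference of 3.48 ± 0.351 (adjusted p = 2.95e-05). Within flow cell A the CFU-E effect was 1.91, and within flow cell B 2.32. Rhoj, a small GTPase that acts on the cytoskeleton, had the same shape at lower counts. It was at 42.3, 25.1 and 36.2 CPM in the WT and 9.52, 9.06, 12.4 and 8.35 CPM in the KO libraries of GMP, and at 0.2097, 1.06 and 0 CPM in the WT and 3.29, 7.48, 6.03 and 2.88 CPM in the KO libraries of CFU-E. Libraries were again apart in both populations, and the difference was 4.95 ± 0.734 (adjusted p = 0.00206). Its 3 CFU-E WT libraries held 7 counts in all and its size is uncertain: it was 3.97 in flow cell A and 9.11 with the CFU-E of flow cell B, where the only WT library was at 0, and it reached 9.18 without CFU-E KO 1. Its CFU-E KO mean of 4.92 CPM kept it out of the count of 21. Chst11, which adds sulfate to chondroitin, moved the other way. In CFU-E it was at 37.1, 35.1 and 24.96 CPM in the WT and 11.7, 11.7, 9.04 and 11.8 CPM in the KO libraries, and in GMP at 43.8, 37.99 and 43.5 CPM in the WT and 63.5, 70.6, 63.4 and 121 CPM in the KO libraries. KO was below every WT library in CFU-E and above every one in GMP, a log2 difference of -2.34 ± 0.352 (adjusted p = 0.00217). With the flow cell term, leaving out CFU-E WT 3 left the CFU-E effect to the libraries of flow cell A. Leaving out CFU-E KO 1 left it to those of flow cell B. Here and below, these 2 fits nearly repeat the flow cell fits, with 1 library in an arm, and are not separate checks. Of these 3 differences, 2 lost the call without CFU-E WT 3 (adjusted p = 0.0619 to 0.133). With flow cell A alone 2 lost the call (0.0806 to 0.0937), and with the CFU-E of flow cell B 1 did (0.0603).

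Positive differences were also found for Ptgs1 and F5 of the megakaryocyte list, Plxna2 and Zyx of the adhesion list, and Tspan14. Ptgs1, the cyclooxygenase that feeds thromboxane synthesis in platelets, was at 2.097, 3.35 and 1.98 CPM in the WT and 6.59, 9.51, 8.29 and 8.89 CPM in the KO libraries of CFU-E and 121, 143 and 142 CPM in the WT and 95.2, 71.5, 91.5 and 87.7 CPM in the KO libraries of GMP. KO was above WT in CFU-E and below it in GMP with no overlap, and the log2 difference was 2.28 ± 0.353 (adjusted p = 0.00238). The GMP effect of Ptgs1, -0.65, missed the threshold (adjusted p = 0.0587). F5, coagulation factor V, was at 0.2097, 2.47 and 0.494 CPM in the WT and 8.601, 8.49, 4.52 and 5.28 CPM in the KO libraries of CFU-E, apart from each other, while in GMP the ranges overlapped (30.6 to 43.6 CPM over KO libraries and 33.5 to 64.8 over WT libraries). The F5 difference was 3.36 ± 0.603 (adjusted p = 0.0105), with a GMP effect of -0.52 that missed the threshold (adjusted p = 0.318). Tspan14, a tetraspanin that escorts the protease Adam10, was at 18.7, 15.5 and 7.91 CPM in the WT and 55.6, 25.8, 47.5 and 47.1 CPM in the KO libraries of CFU-E and 142, 217 and 225 CPM in the WT and 134, 119, 121 and 84.9 CPM in the KO libraries of GMP. It rose in CFU-E (log2 1.99, adjusted p = 0.000611), and its GMP effect of -0.76 missed the threshold (adjusted p = 0.0673). Zyx, zyxin of focal adhesions, differed by 1.86 ± 0.396 (adjusted p = 0.0317) with neither KO effect past the threshold on its own. Plxna2, a semaphorin receptor, was at 0.629, 0.881 and 0.742 CPM in the WT and 7.69, 9.34, 6.97 and 9.13 CPM in the KO libraries of CFU-E. In GMP it had 2 counts over the 4 KO libraries and 7 over the 3 WT libraries, and no GMP fold is given. In CFU-E it rose (log2 3.35, adjusted p = 0.000864), and the difference had an adjusted p of 0.0316. Of these 5 differences, 5 lost the call without CFU-E WT 3 (adjusted p = 0.0526 to 0.75). Leaving out CFU-E KO 1, GMP WT 3, GMP KO 3, CFU-E WT 1, CFU-E KO 2, CFU-E KO 4, GMP WT 1, GMP WT 2, GMP KO 2, CFU-E WT 2 or CFU-E KO 3 ended 1 to 3 of the 5 (0.0513 to 0.139). With flow cell A alone 5 lost the call (0.0509 to 0.825), and with the CFU-E of flow cell B 3 did (0.0503 to 0.138).

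Of 40 megakaryocyte and platelet genes tested, of 50 listed, 2 differed between populations (Ptgs1 and F5), 30 had a positive difference and the median was 1.05. Over all genes tested 0.445% differed, the median was 0.09 and 55.7% were positive. Within CFU-E, 7 of the 40 rose and 0 fell (list median 1.23), and within GMP 1 rose and 0 fell (median 0.23). Over all genes tested, 0.227% rose and 0.472% fell in CFU-E (median 0.0047), and 0.836% rose and 2.34% fell in GMP (median -0.058). The summed level of the list ran from 1684 to 2460 CPM in the CFU-E KO libraries and from 968 to 1384 in the WT ones, and the platelet chemokine Pf4 was at 213 to 497 CPM and 51.6 to 138.7 CPM in the same groups. In GMP the sum was also higher in KO without overlap, at 1183 to 1300 CPM against 1005 to 1179 in WT. Of 42 adhesion and cytoskeleton genes tested, of 55 listed, 3 differed (Actn1, Plxna2 and Zyx), 33 were positive and the median was 0.68. In that list 4 rose and 1 fell in CFU-E, and 0 rose and 6 fell in GMP, to be read against the same shares of all genes.

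**Figure D2:**
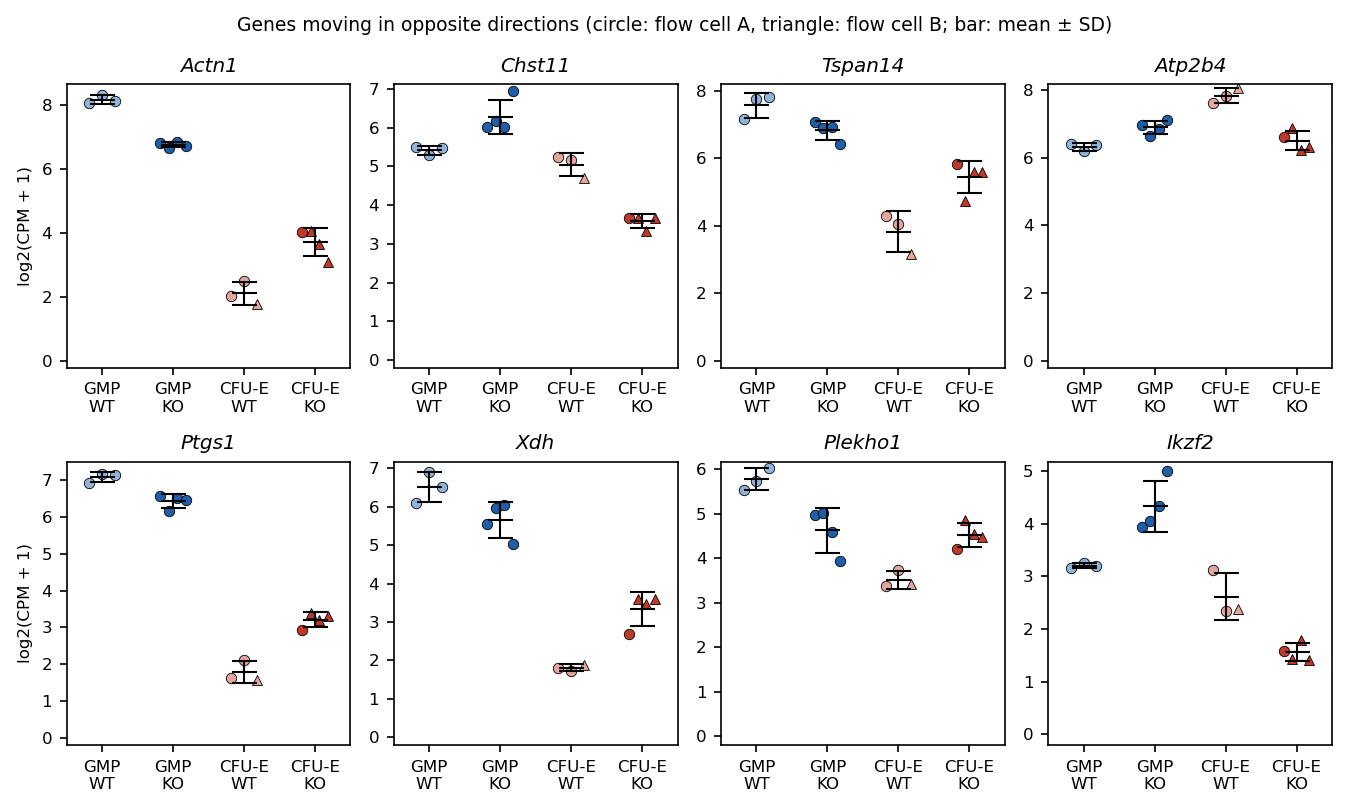
Level per library, as log2(CPM + 1), of 8 genes that moved in opposite directions, in the 4 groups on the horizontal axis. Each point is a library (circles flow cell A, triangles flow cell B) and bars give the mean ± SD. On the CPM scale Actn1 in CFU-E spans 7.68 to 15.97 CPM over KO libraries and 2.47 to 4.76 over WT libraries, and in GMP 100.3 to 114.4 over KO and 267.8 to 319.1 over WT.

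Besides Chst11, 4 genes were counted as down in CFU-E and up in GMP. Atp2b4, a calcium pump of the plasma membrane, was at 195, 223 and 267 CPM in the WT and 95.9, 117, 74.6 and 78.3 CPM in the KO libraries of CFU-E and 83.2, 71.7 and 82.8 CPM in the WT and 125, 99.3, 115 and 137 CPM in the KO libraries of GMP. The groups were apart in both populations, with KO lower in CFU-E and higher in GMP. The log2 difference was -1.95 ± 0.285 (adjusted p = 0.00206), with a fall in CFU-E (-1.36, adjusted p = 0.000668) and a GMP effect of 0.58 that missed the threshold (adjusted p = 0.094). Dhcr7, the last enzyme of cholesterol synthesis, read 6.04 to 9.61 CPM over KO libraries and 13.4 to 22.5 over WT libraries in CFU-E and 11.2 to 17.7 CPM over KO libraries and 8.19 to 11.6 over WT libraries in GMP, with a narrow overlap in GMP. It fell in CFU-E (log2 -1.36, adjusted p = 0.0151), and its GMP effect of 0.62 missed the threshold (adjusted p = 0.185). The difference was -1.98 ± 0.387 (adjusted p = 0.0202). Dhcr7 was the 1 gene called of 36 tested for fatty acid and sterol synthesis, against 0.445% of all genes tested. In that list 18 were positive and the median was 0.02. Ikzf2, the transcription factor Helios, rose in GMP, at 7.92, 8.59 and 8.22 CPM in the WT and 14.3, 15.6, 19.1 and 30.96 CPM in the KO libraries. In CFU-E it was at 7.76, 4.05 and 4.202 CPM in the WT and 2.01, 1.699, 2.45 and 1.68 CPM in the KO libraries. Its CFU-E effect of -1.30 missed the threshold (adjusted p = 0.246), and the difference was -2.59 ± 0.534 (adjusted p = 0.0285). Il31ra, a cytokine receptor subunit, rose in GMP (log2 1.86, adjusted p = 0.036), with KO libraries from 4.69 to 23.7 CPM. In CFU-E it averaged 2.99 CPM in KO and 6.84 in WT. That effect of -1.33 missed the threshold (adjusted p = 0.353), and the difference was -3.19 ± 0.672 (adjusted p = 0.0316). GMP KO 4 held the highest value of Atp2b4, Chst11, Dhcr7, Ikzf2 and Il31ra among GMP libraries. Of these 4 differences, 4 lost the call without CFU-E WT 3 (adjusted p = 0.188 to 0.436). Leaving out GMP WT 2, CFU-E KO 1, GMP WT 3, GMP KO 3, CFU-E WT 1, CFU-E WT 2, CFU-E KO 3 or CFU-E KO 4 ended 1 to 3 of the 4 (0.0525 to 0.148). With flow cell A alone 4 lost the call (0.19 to 0.535), and with the CFU-E of flow cell B 3 did (0.136 to 0.156).

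Ngp and 12 other genes had positive effects in CFU-E and negative effects in GMP. Of the 13 CFU-E effects, only that of Tnfrsf21 passed the threshold (adjusted p = 0.0318). The others missed it (adjusted p from 0.0539 for Xdh to 0.518 for Ier5), so their rise in CFU-E was not called. Ngp, a protein of secondary neutrophil granules, was at 25238, 31836 and 27192 CPM in the WT and 11438, 17469, 14588 and 9470.3 CPM in the KO libraries of GMP, and at 48.9, 69.3 and 43.3 CPM in the WT and 138, 156, 79.5 and 59.8 CPM in the KO libraries of CFU-E. GMP libraries did not overlap, and CFU-E KO 4 lay below CFU-E WT 2. Ngp fell in GMP (log2 -1.08, adjusted p = 0.0374), its CFU-E effect of 1.21 missed the threshold (adjusted p = 0.119), and the difference was 2.29 ± 0.427 (adjusted p = 0.0135). Slpi, an inhibitor of neutrophil proteases, was at 178, 353 and 296 CPM in the WT and 49.2, 65.9, 62.8 and 18.1 CPM in the KO libraries of GMP. In CFU-E it was at 1.26, 3.701 and 1.24 CPM in the WT and 8.42, 12.9, 3.202 and 4.56 CPM in the KO libraries, with CFU-E KO 3 below CFU-E WT 2. Its difference was 4.46 ± 0.717 (adjusted p = 0.00352). S100a6, a calcium-binding protein, read 67.8 to 227 CPM over KO libraries and 410.5 to 736 over WT libraries in GMP and 5.76 to 11.04 CPM over KO libraries and 2.22 to 5.99 over WT libraries in CFU-E, a difference of 2.94 ± 0.591 (adjusted p = 0.0247). Xdh, xanthine dehydrogenase of purine breakdown, was at 2.52, 2.29 and 2.72 CPM in the WT and 5.49, 11.2, 9.98 and 11.05 CPM in the KO libraries of CFU-E and 67.9, 119 and 90.97 CPM in the WT and 46.03, 61.5, 65.02 and 31.7 CPM in the KO libraries of GMP. Its libraries were apart in both, the difference was 2.41 ± 0.444 (adjusted p = 0.012), and neither KO effect passed alone. Il21r, the receptor of interleukin 21, differed by 2.51 ± 0.48, Plekho1 by 2.14 ± 0.394, Rab32 by 2.18 ± 0.441 and Tesc by 3.37 ± 0.725, with each one called lower in GMP KO. The Rab32 difference was 1.37 in flow cell A and 3.53 with the CFU-E of flow cell B, and 1.36 without CFU-E WT 3. Phlda1 and Basp1 also fell in GMP, from means of 6.44 and 8.56 CPM in WT to 0.840 and 2.25 in KO. In CFU-E, which averaged under 5 CPM, their differences rested on few counts. Prune, Ier5 and Tnfrsf21, named after their values were seen, complete the 16 up in CFU-E and down in GMP, with differences of 1.53, 1.67 and 2.05. Tnfrsf21 overlapped in CFU-E, at 13.6 to 50.5 CPM over KO libraries and 8.16 to 25.6 over WT libraries. It also overlapped in GMP, at 84.2 to 136 CPM over KO libraries and 133 to 184 over WT libraries. With no flow cell term it lost the call. Of these 13 differences, 13 lost the call without CFU-E WT 3 (adjusted p = 0.133 to 0.702) and 12 without CFU-E KO 1 (0.0505 to 0.149). Leaving out GMP WT 2, CFU-E WT 1, GMP WT 3, GMP KO 3, CFU-E KO 2, CFU-E KO 3, CFU-E WT 2, GMP KO 2, CFU-E KO 4 or GMP KO 1 ended 1 to 8 of the 13 (0.051 to 0.162). With flow cell A alone 13 lost the call (0.0509 to 0.813), and with the CFU-E of flow cell B 12 did (0.0581 to 0.167).

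Of 30 late neutrophil genes tested, of 36 listed, only Ngp differed between populations, against 0.445% of all genes tested. The list's median difference was 1.23 and 26 were positive, but just 6 of the 30 reached 5 CPM in both populations. Within GMP 6 fell and 1 rose (median -0.59), against 2.34% lower and 0.836% higher over all genes tested. Within CFU-E the median was 0.73 and edgeR called 0, with 7 at an unadjusted p under 0.05 and 1 called by DESeq2 and by limma-voom. The summed level of the list did not overlap in GMP, with 80251 to 139505 CPM over KO libraries and 180764 to 243030 over WT libraries. In CFU-E it overlapped, with 289 to 783 CPM over KO libraries and 277 to 537 over WT libraries. The neutrophil alarmin S100a8 was at 115 to 373 CPM over CFU-E KO libraries and 139 to 279 over CFU-E WT libraries, and lactoferrin, Ltf, at 2.45 to 9.33 and 3.77 to 5.64. In GMP, S100a8 was at 32034 to 69985 CPM over KO libraries and 98027 to 127094 over WT libraries. Ngp is itself a member of the list and adds to its sum. The sum moved with the GMP genotype beside Slpi and S100a6 too. Its part in the differences of Ngp, Slpi and S100a6 was not tested. In the primary granule and promyelocyte list 1 of 28 differed (Serpinb1a, median 0.70, 20 positive). Of 22 monocyte and macrophage genes edgeR called 0 (median 0.62, 20 positive), with 4 at an unadjusted p under 0.05, 1 called by DESeq2 and 0 by limma-voom. For the 6 MHC class II genes all of these counts were 0 (median 1.32, all 6 positive). Just 3 of the 22 monocyte and macrophage genes and 3 of the 6 MHC class II genes reached 5 CPM in both populations. Within GMP 1 MHC class II gene fell, Cd74 (log2 -2.32, adjusted p = 0.018), which was at no more than 1.24 CPM in any CFU-E library.

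**Figure D3:**
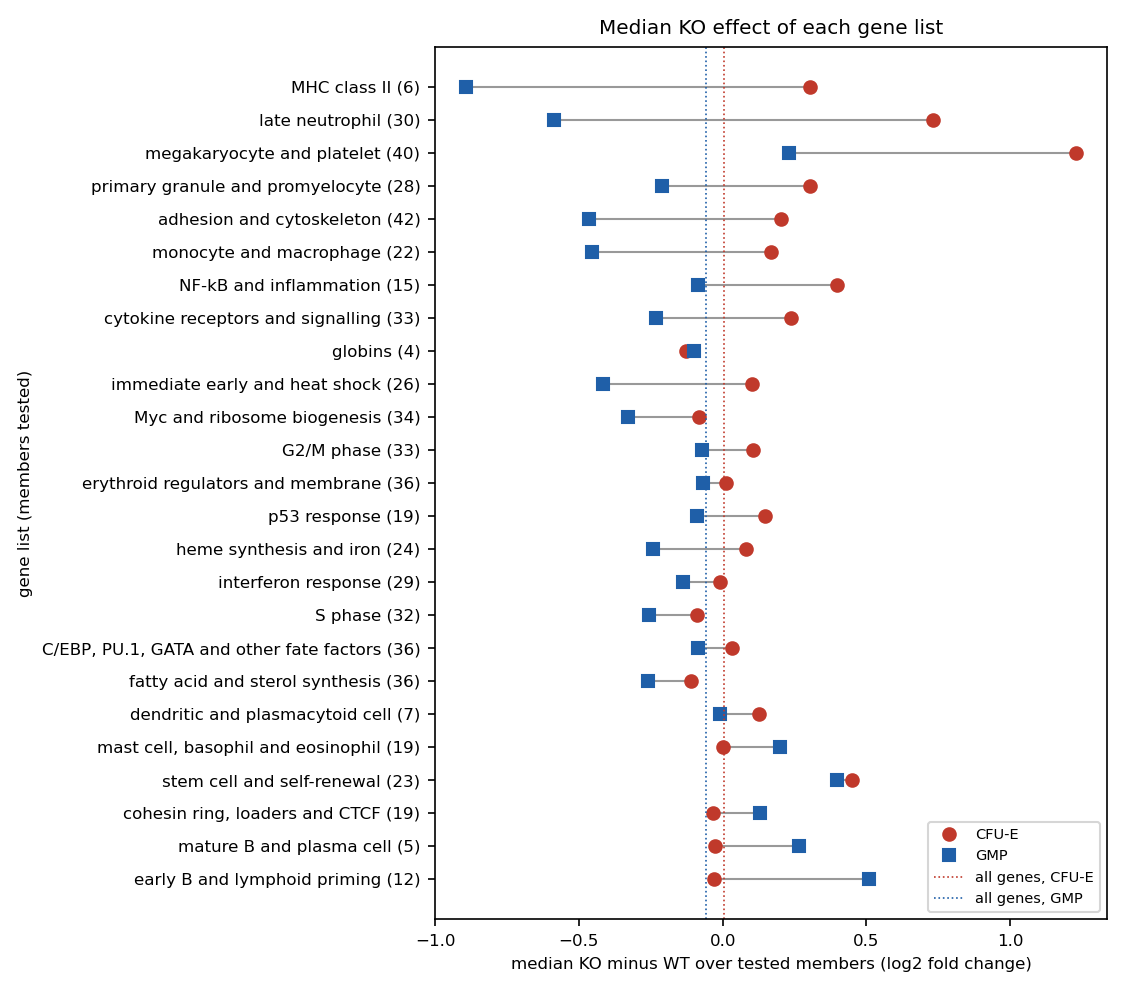
Median KO effect (log2 fold change) over the tested members of each gene list in CFU-E (red circles) and GMP (blue squares), ordered by the median difference, with dotted lines at the medians of all genes. A list with 1 tested member is left out. Late neutrophil genes lie at 0.73 in CFU-E and -0.59 in GMP, and megakaryocyte and platelet genes at 1.23 and 0.23.

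In 12 further genes the KO effect was called in CFU-E and not in GMP. Rnf128, a ubiquitin ligase, was at 31.7, 33.1 and 42.8 CPM in the WT and 3.84, 2.55, 3.96 and 2.16 CPM in the KO libraries of CFU-E. In GMP the ranges overlapped, 16.9 to 26.4 CPM over KO libraries and 9.25 to 29.6 over WT libraries. The log2 difference was -3.74 ± 0.501 (adjusted p = 0.00116), and the GMP effect was 0.21 (95% interval -0.48 to 0.90). Enpp1, a cell surface pyrophosphatase, was at 32.7, 32.4 and 29.7 CPM in the WT and 2.38, 5.61, 4.14 and 3.84 CPM in the KO libraries of CFU-E and 10.8, 10.9 and 8.52 CPM in the WT and 7.14, 10.6, 8.92 and 13.2 CPM in the KO libraries of GMP. The CFU-E groups were far apart and the GMP groups overlapped, with a GMP effect of 0.02 (95% interval -0.59 to 0.62). The Enpp1 difference was -3.13 ± 0.431 (adjusted p = 0.00116). Gda, guanine deaminase, read 5.44 to 11.9 CPM over KO libraries and 31.4 to 73.2 over WT libraries in CFU-E and 569.5 to 712 CPM over KO libraries and 409 to 848 over WT libraries in GMP, a difference of -2.68 ± 0.413 (adjusted p = 0.00235). Lgals1, galectin 1, read 6.22 to 11.3 CPM over KO libraries and 24.95 to 35.8 over WT libraries in CFU-E and 586 to 655 CPM over KO libraries and 456 to 719 over WT libraries in GMP, a difference of -2.08 ± 0.321 (adjusted p = 0.00235). Celsr1, an atypical cadherin, had 4 counts over the 4 CFU-E KO libraries and 56 over the 3 CFU-E WT libraries, against 108 and 127 in GMP. Its difference of -4.01 ± 0.828 (adjusted p = 0.0285) has the error of such low counts. Sqrdl, of mitochondrial sulfide oxidation, fell in CFU-E and differed by -1.90. In the other direction, Sla, Ndrg2, Kif21b, Tmsb4x, Cdc25b and Slco3a1 rose in CFU-E with differences of 2.25, 2.01, 1.82, 1.75, 1.48 and 1.53. Sla is an adaptor that damps antigen and cytokine receptor signals, Tmsb4x binds actin monomers and Cdc25b activates mitotic kinases. These 6 and Sqrdl were named after their values were seen. Of these 12 differences, 11 lost the call without CFU-E WT 3 (adjusted p = 0.133 to 0.71) and 7 without CFU-E KO 1 (0.109 to 0.158). Leaving out GMP WT 3, GMP WT 2, GMP KO 3, CFU-E KO 2, CFU-E WT 1, CFU-E WT 2, CFU-E KO 3, CFU-E KO 4, GMP WT 1, GMP KO 1 or GMP KO 2 ended 1 to 4 of the 12 (0.0501 to 0.149). With flow cell A alone 11 lost the call (0.135 to 0.813), and with the CFU-E of flow cell B 7 did (0.108 to 0.196).

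In another 12 genes the KO effect was called in GMP and not in CFU-E, 11 of them lower in KO. GMP KO libraries were also the shallower ones, and with all counts thinned to the shallowest library 6 of the 49 calls remained. Bzrap1 was at 105, 106 and 115 CPM in the WT and 11.9, 16.2, 11.8 and 7.65 CPM in the KO libraries of GMP, and it read 2.04 to 3.84 CPM over KO libraries and 2.11 to 6.29 over WT libraries in CFU-E. GMP libraries were far apart and CFU-E libraries overlapped, a difference of 3.08 ± 0.51 (adjusted p = 0.00484). Serpinb1a, an inhibitor of neutrophil serine proteases, was at 989, 1008 and 833 CPM in the WT and 301, 367, 289 and 188 CPM in the KO libraries of GMP and 2.64 to 5.78 CPM over all CFU-E libraries. Its difference was 2.06 ± 0.407 (adjusted p = 0.0207). Bcl2l1, which encodes the survival protein Bcl-xL, was at 46.5, 67.4 and 57.8 CPM in the WT and 20.6, 14.995, 15.9 and 10.4 CPM in the KO libraries of GMP and 17.8, 22.9 and 18.3 CPM in the WT and 17.4, 23.3, 15.3 and 16.3 CPM in the KO libraries of CFU-E. It fell in GMP (log2 -1.92, adjusted p = 0.00014) with overlapping CFU-E groups, where the effect was -0.11 (95% interval -0.67 to 0.45). Bcl2l1 was the 1 gene called of 36 erythroid regulator and membrane genes tested (median 0.26, 24 positive), against 0.445% of all genes tested. St3gal5, the synthase of the ganglioside GM3, read 14.3 to 31.9 CPM over KO libraries and 57.5 to 107 over WT libraries in GMP and 369 to 431 CPM over KO libraries and 291 to 369 over WT libraries in CFU-E, a difference of 2.20 ± 0.368 (adjusted p = 0.00507). Gpc1, Lhfpl2, Syngr1, Pacs1, Esyt1, Mgll and Fhod1 also fell in GMP, with differences of 2.66, 2.398, 2.71, 1.34, 2.15, 1.33 and 1.36. That of Gpc1 was 4.31 with the CFU-E of flow cell B. Ssh1, a phosphatase that activates the actin-severing protein cofilin, rose in GMP from 7.08 to 18.6 CPM on average and differed by -1.79. These 8 and St3gal5 were named after their values were seen. Mgll had negative effects in both populations (-0.65 in CFU-E and -1.98 in GMP). Fhod1 was the last gene inside the threshold (adjusted p = 0.0491), and Pcgf5 and Lyz2 lay just outside it (0.0568 each). Of these 12 differences, 12 lost the call without CFU-E WT 3 (adjusted p = 0.109 to 0.68) and 11 without CFU-E KO 1 (0.0559 to 0.201). Leaving out GMP WT 2, CFU-E WT 1, GMP WT 3, CFU-E KO 3, CFU-E WT 2, CFU-E KO 2, CFU-E KO 4, GMP KO 2, GMP KO 3, GMP WT 1 or GMP KO 1 ended 2 to 7 of the 12 (0.0509 to 0.196). With flow cell A alone 12 lost the call (0.135 to 0.704), and with the CFU-E of flow cell B 11 did (0.0698 to 0.219).

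**Figure D4:**
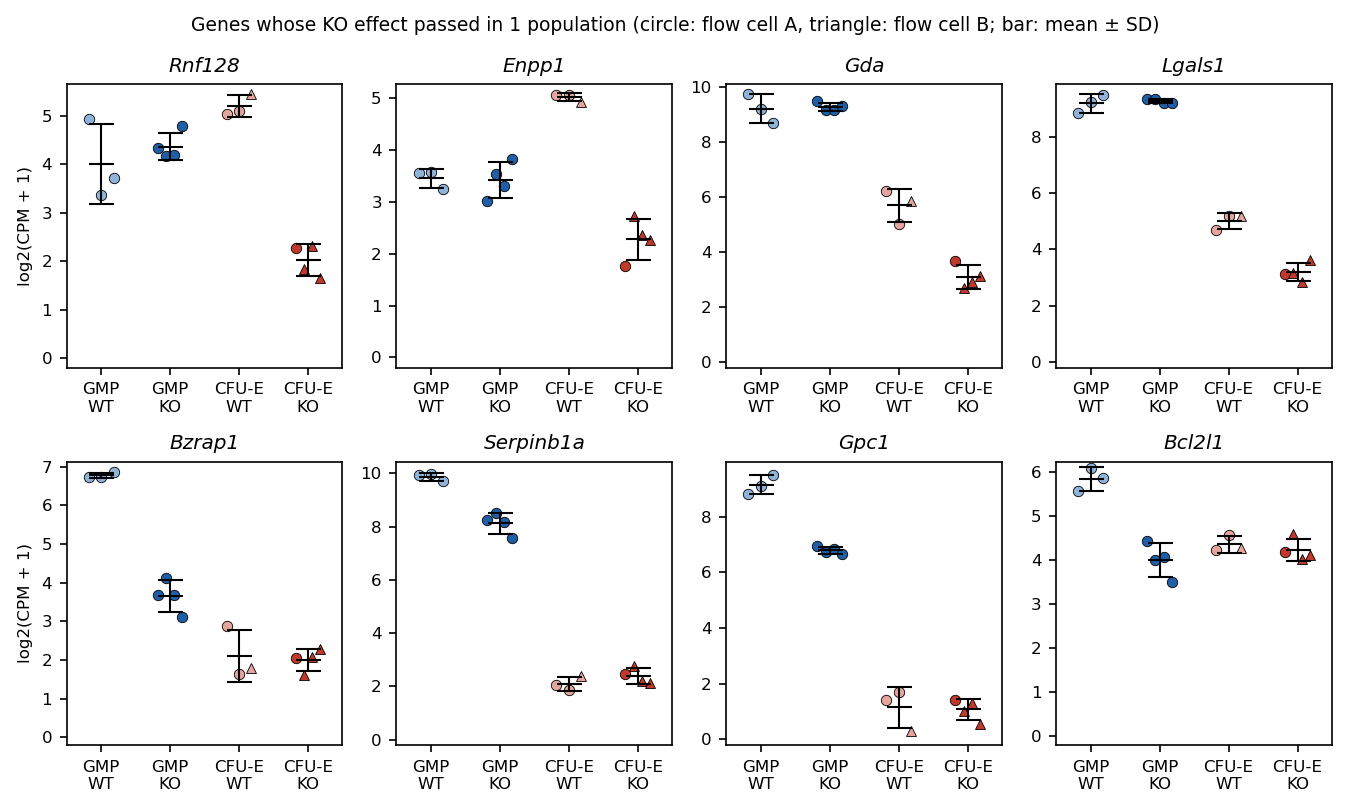
Level per library, as log2(CPM + 1), of 8 genes whose KO effect was called in 1 population alone, with points and bars as in the plot of genes moving in opposite directions (circles flow cell A, triangles flow cell B, mean ± SD). On the CPM scale Enpp1 in CFU-E spans 2.38 to 5.61 CPM over KO libraries and 29.7 to 32.7 over WT libraries, while its GMP libraries span 7.14 to 13.2.

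**Figure D5:**
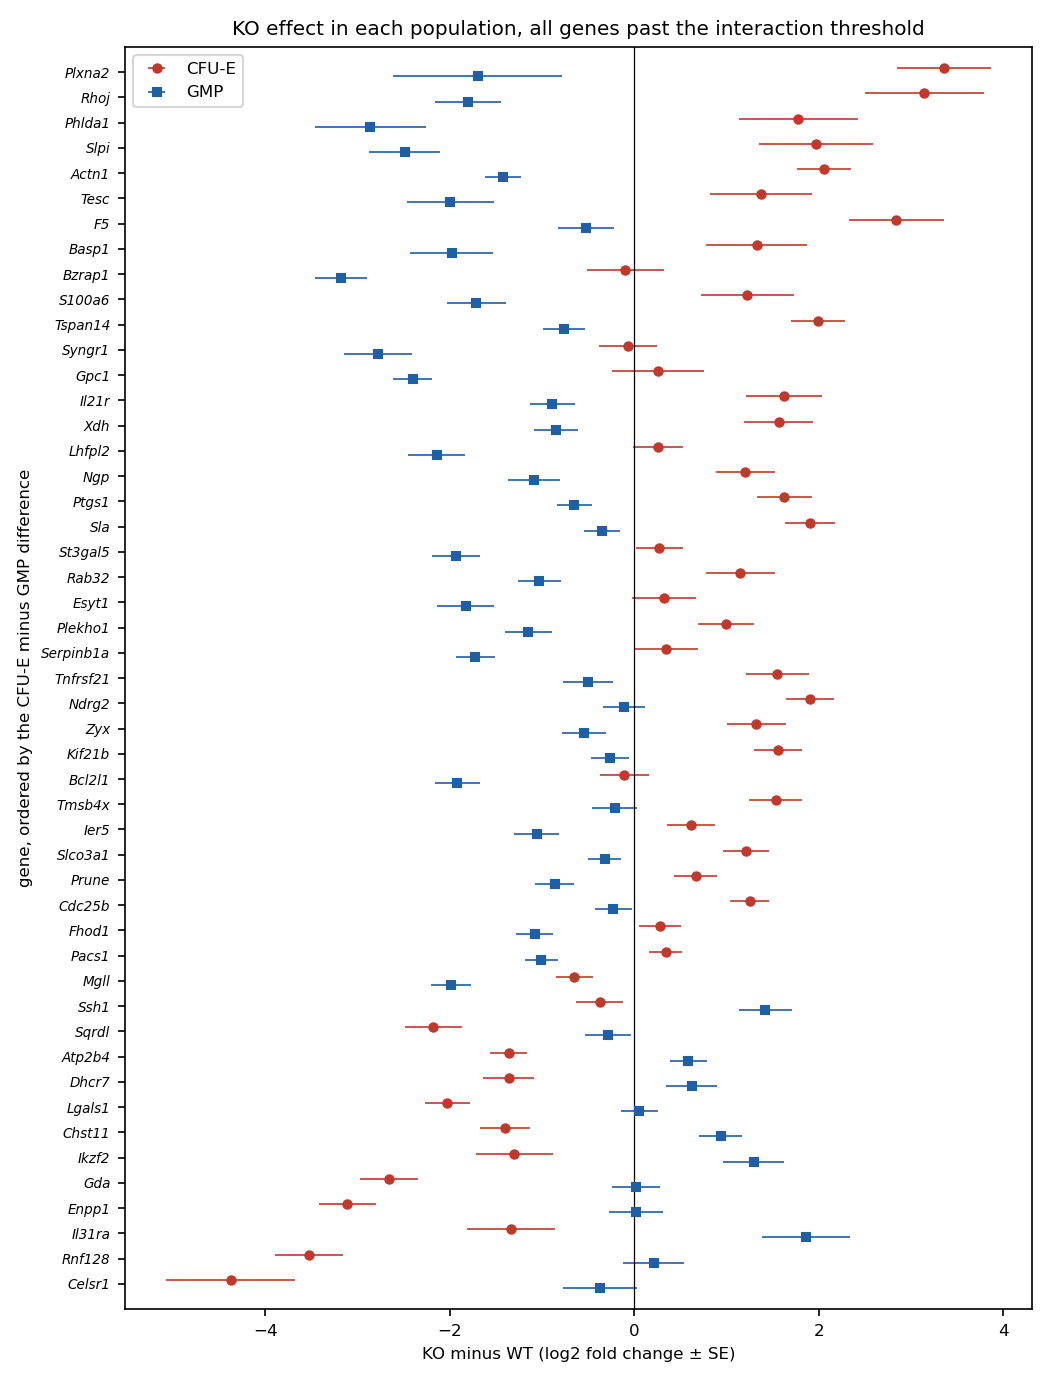
KO effect (log2 fold change ± SE) in CFU-E (red circles) and GMP (blue squares) for each of the 49 genes, in rows ordered by the difference. Actn1 lies at 2.06 in CFU-E and -1.42 in GMP, on opposite sides of 0.

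CFU-E effects were also read within each flow cell. Flow cell A held all GMP libraries, 1 CFU-E KO and 2 CFU-E WT libraries, and flow cell B held 3 CFU-E KO and 1 CFU-E WT library. Each thus had 1 library in an arm, and the genes were called from these same libraries, so the values describe and do not test. For Ptgs1 the CFU-E effect was 1.22 in A and 2.21 in B, for Atp2b4 -1.15 and -1.50, for Rnf128 -3.09 and -3.80, and for Ngp 1.19 and 1.27. Over the 49 genes, the CFU-E effect had the same sign in both flow cells for 45. It changed sign from A to B for Bzrap1 (-0.42 and 0.32), Bcl2l1 (-0.26 and 0.07), Gpc1 (-0.30 and 1.98) and Esyt1 (-0.15 and 0.83). CFU-E WT 3 was the 1 WT library of flow cell B. Without it, flow cell B held only KO libraries. The flow cell term then left the CFU-E effect to CFU-E KO 1 against the 2 WT libraries of flow cell A. Without CFU-E KO 1, the effect likewise came from flow cell B alone. These 2 fits therefore do not measure the weight of 1 library. Of the 49, 2 kept the call in each of the 14 fits that left out 1 library, Actn1 and Enpp1. For all 49, the difference between populations kept its sign in every fit where the gene was tested, which again describes and does not test.

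The remaining lists held no called gene apart from those already named. For those named here, each list's count at an unadjusted p under 0.05 and its calls by DESeq2 and limma-voom are given in that order beside the 0 of edgeR. Of 19 cohesin, loader and CTCF genes tested, 0 differed (1, 0 and 0, median -0.23), with Wapal, which releases cohesin, at -0.66 (adjusted p = 0.375). Of 24 heme and iron genes 0 differed (5, 1 and 2, median 0.20), with the glycine carrier Slc25a38 at 1.46 (adjusted p = 0.105). Hbb-b1, an adult beta globin whose reads a near-identical copy can share, fell in CFU-E (log2 -1.39, adjusted p = 0.0252) and differed by -1.38 (adjusted p = 0.203). The other beta globin, Hbb-b2, had a CFU-E effect of 0.71 (adjusted p = 0.693), with means of 813 CPM in KO and 518 in WT, and differed by 0.85 (adjusted p = 0.445). Of 4 globin genes tested, 0 differed (1, 0 and 0, median 0.52) and 3 were positive. Of 23 stem cell and self-renewal genes 0 differed (3, 0 and 1, median -0.16). Msi2, an RNA-binding protein of that list, rose in GMP (log2 1.37, adjusted p = 0.0138) and differed by -1.45 (adjusted p = 0.14). Among fate factors 0 of 36 differed (5, 2 and 2, median 0.10), with Tcf4, a factor of plasmacytoid dendritic cells, at -1.42 (adjusted p = 0.113) and Myb, a regulator of progenitors, at -1.25 (adjusted p = 0.157). The S phase list held 0 called genes of 32 (3, 0 and 0, median 0.12) and the G2/M list 0 of 33 (5, 0 and 1, median 0.30).

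Across the 8055 genes at 5 CPM or more in both populations, the KO effects in CFU-E and GMP had a Pearson r of 0.0019 and a Spearman rank correlation of -0.06. This is a description across genes, which are not independent, and the median SE of a KO effect was 0.26 in CFU-E and 0.24 in GMP, against which single effects are to be read. A few effects were alike: 9 of the 12 genes called in both populations moved the same way. Aplp2, an amyloid precursor-like protein, was lower in KO by log2 -1.42 in CFU-E and -1.54 in GMP, a difference of 0.12 (95% interval -0.42 to 0.66). Cnn3, an actin-binding calponin, fell by 5.12 and 3.74 on the log2 scale, a difference of -1.38 (95% interval -3.26 to 0.49). Both were named after their values were seen.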

How the data were processed

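RNA was measured in GMP and CFU-E of Stag2 KO and WT mice, 14 libraries. The table holds raw counts per gene as deposited, which the authors made with STAR 2.4 and HTSeq 0.6.1 on mm9, per the submitters' processing notes, which also name DESeq2. The annotation, and whether counting used strand, is not given in the sources used here; genes that overlap or have near-identical copies are uncertain.

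Genes were kept by filterByExpr (minimum count 10, total 15) in edgeR 4.0.16 under R 4.3.3, scaled by TMM and tested with the quasi-likelihood F test in 1 model of 4 groups plus flow cell, with Benjamini-Hochberg adjustment over all 11006 genes. SE is the log2 fold change over the square root of F. On simulated counts for this difference (10824 genes), 1.49% of genes changed 1.5-fold, 11.9% changed 2-fold and 81.8% changed 4-fold were called, with 3 false calls. Alternatives used DESeq2 1.42.0 and limma 3.58.1, among others. Within groups, chi-square per degree of freedom between libraries was at least 4.03, so no pair agreed within sampling noise.

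The groups, the 26 gene lists (768 genes, 742 in the table) and the tests were chosen with earlier results of these data known. Named genes are Stag2 and Stag1; the 10 largest differences in each direction among called genes with 5 CPM in a group and separate KO and WT libraries; the strict opposite genes and 12 others with the smallest p; and up to 4 called members per list, or 2 members as values where none was called. Symbols of predicted or unnamed genes are counted only. Other names were chosen after their values were seen. LSK libraries used another kit and are not analysed here.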

Additional observations from a re-analysis of the deposited data

Results flagged for a closer look

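The KO effect differed between CFU-E and GMP, by the interaction test at adjusted p under 0.05, for 49 genes, whose differences (log2, CFU-E minus GMP) follow. Higher in CFU-E were Actn1 3.48, Tspan14 2.75, Rhoj 4.95, Sla 2.25, Ptgs1 2.28, Slpi 4.46, Bzrap1 3.08, St3gal5 2.20, Ndrg2 2.01 and Lhfpl2 2.398. Next were F5 3.36, Syngr1 2.71, Kif21b 1.82, Xdh 2.41, Plekho1 2.14, Ngp 2.29, Pacs1 1.34, Phlda1 4.64, Il21r 2.51 and Cdc25b 1.48. Next were Serpinb1a 2.06, Slco3a1 1.53, S100a6 2.94, Bcl2l1 1.81, Rab32 2.18, Gpc1 2.66, Prune 1.53, Plxna2 5.05, Ier5 1.67 and Tmsb4x 1.75. Next were Zyx 1.86, Tnfrsf21 2.05, Basp1 3.30, Tesc 3.37, Esyt1 2.15, Mgll 1.33 and Fhod1 1.36. Lower in CFU-E were Rnf128 -3.74, Enpp1 -3.13, Atp2b4 -1.95, Chst11 -2.34, Gda -2.68, Lgals1 -2.08, Dhcr7 -1.98, Ikzf2 -2.59, Celsr1 -4.01 and Sqrdl -1.90. Also lower were Il31ra -3.19 and Ssh1 -1.79. The Plxna2 value includes a GMP effect from 2 counts in KO and 7 in WT libraries and has no reliable size, and that of Rhoj rests on 7 CFU-E WT counts.

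In groups of 4 libraries, 10 of 176 gene and group combinations had a library set apart from the other 3 by Dixon's ratio, where chance alone flags about 1 in 20. Of these, 7 concerned GMP KO 4. It held the highest level of Chst11 (121.1 CPM), Tcf4 (251.5), Slbp (156.9) and Myb (1769.7) and the lowest of Lhfpl2 (1.39), Nkg7 (273) and Ifitm3 (9.39). CFU-E KO 3 was lowest for Chst11 (9.04 CPM) and highest for Bank1 (0.565), and CFU-E KO 2 was highest for Nkg7 (7.48).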

How the results depend on the processing

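The differences of all 49 genes kept their sign wherever they were tested in 28 alternatives. The genes were called from these same libraries, so the kept sign describes them and is not a separate test. The counts called (49 in all, 37 higher, 12 lower, 21 opposite, 2 strictly so, 77 in CFU-E and 350 in GMP) moved with the setting, in that order. DESeq2 gave 133, 94, 39, 43, 6, 132 and 611, limma-voom with quality weights 148, 110, 38, 46, 8, 170 and 1233, and no filter on low counts 254, 153, 101, 71, 10, 178 and 785. Counts thinned to the shallowest library gave 6, 3, 3, 4, 0, 13 and 27. Flow cell A alone gave 2, 1, 1, 1, 0, 2 and 214, and the CFU-E of flow cell B with all GMP 16, 9, 7, 9, 1, 32 and 209. With no flow cell term the total was 81, with 63 higher, 34 opposite, 5 strictly and 151 in CFU-E. Without GMP KO 1 and KO 4 the strict count was 1 and the GMP count 106. Leaving out 1 library gave 2 to 72 in all (2 without CFU-E WT 3, 72 without GMP WT 1), 1 to 54 higher, 1 to 18 lower, 1 to 36 opposite, 0 to 5 strictly, 5 to 132 in CFU-E and 72 to 779 in GMP. The share higher, 75.5%, was 60.2% with no filter, 50% when thinned or in flow cell A and 56.2% in flow cell B. Flow cell A and the fits with fewer libraries use fewer samples, and the filter and thinning change the genes or counts tested. Why the counts moved was not tested for any setting. With the flow cell term, the fit without CFU-E WT 3 nearly repeats that of flow cell A. The fit without CFU-E KO 1 nearly repeats that with the CFU-E of flow cell B.

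With the replicate number as a block the total was 83, with 66 higher, 34 opposite and 215 in GMP, and 44 of the 49 genes were still called. Same-numbered libraries had correlations of their deviations from -0.153 to 0.238, and not every library correlated best with its own number. Both ends of that range are KO against WT pairs within CFU-E. The deviations were taken from group means and still held the flow cell shift in CFU-E. These correlations therefore cannot decide whether the numbers pair samples, and the main model has no such block. A replicate block by the sample numbers of the column names, added after seeing the data, gave 32 in all and 7 lower. Each such number is shared by 1 GMP and 1 CFU-E library of the same genotype, whose deviations correlated at 0.0267 to 0.1001 in KO and -0.147 to -0.0497 in WT. Of the 49 calls 25 remained, and 24 were lost (adjusted p = 0.0506 to 0.203): Lhfpl2, Kif21b, Pacs1, Phlda1, Dhcr7, Slco3a1, Bcl2l1, Rab32, Ikzf2, Gpc1, Celsr1, Prune, Sqrdl, Plxna2, Il31ra, Ier5, Ssh1, Zyx, Tnfrsf21, Basp1, Tesc, Esyt1, Mgll and Fhod1.

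The difference of Nkg7, 0.19 and not called, turned to -0.24 with limma-voom, -0.45 in flow cell A and -0.027 without GMP KO 1 and KO 4, and spanned -0.46 to 0.71 when 1 library was left out (below 0 without CFU-E WT 3, GMP KO 4 or CFU-E KO 2). That of Aplp2 turned to -0.016 with limma-voom. That of Stag1 spanned -0.48 to 0.033 when 1 library was left out, above 0 without GMP WT 3. The median SE of a difference was 0.40, which holds both counting error and spread between libraries, and simulated 2-fold changes were mostly missed.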
